A study of Mus musculus with 8 samples.

Results

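The transcripts described here are the messenger RNAs of hemoglobin in mouse kidney: the adult alpha-globin genes Hba-a1 and Hba-a2, the adult beta-globin genes Hbb-bs and Hbb-bt, the embryonic alpha-type gene Hba-x, the embryonic beta-type genes Hbb-y and Hbb-bh1, and Alas2, the first enzyme of heme synthesis in red cell precursors. They were taken by name, with earlier results of these data known, and make up 8 of the 49315 genes counted. The samples were 8 kidneys, 4 labelled Control and 4 labelled Conditional Knockout, in which the gene is Kdm1a. Kdm1a encodes LSD1, an enzyme that takes methyl groups off histone H3. RNA came from frozen kidney tissue, poly(A) RNA was captured with oligo-dT beads, and a NEBNext Ultra RNA kit was used for library preparation. The labels' protocol calls the controls wild type. Strain, age, sex, Cre driver, the cells in which Kdm1a was deleted and any perfusion of the kidneys are not given in the sources used here. Nothing in them says that the kidneys came from separate animals, so each p-value measures only the spread between these samples.

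Hemoglobin is a tetramer of alpha-type and beta-type chains, each holding a heme group. In the mouse, primitive red cells made in the yolk sac carry the embryonic chains, and definitive red cells made in the fetal liver and later in the bone marrow carry the adult chains. Young red cells leave the marrow with globin messenger RNA still inside, so blood left in a solid organ brings globin reads into its library. LSD1 is known as a corepressor that is brought to embryonic and fetal globin genes in erythroid cells, among others by BCL11A and by the nuclear receptors encoded by Nr2c1 and Nr2c2.

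In GRCm38 coordinates the alpha-type genes lie in order on the forward strand of chromosome 11: Hba-x at chr11:32276400-32278116, Hba-a1 at chr11:32283511-32284465 and Hba-a2 at chr11:32296489-32297298. The beta-type genes lie on the reverse strand of chromosome 7: Hbb-bt at chr7:103812524-103813996, Hbb-bs at chr7:103826534-103828096, Hbb-bh1 at chr7:103841637-103843164 and Hbb-y at chr7:103851749-103853216. Alas2 is on the forward strand of the X chromosome at chrX:150547375-150570638. All 8 are protein-coding genes, and the counts were made over their exons.

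How well a read can be given to one of these genes depends on how much the copies differ. The coding sequences of Hba-a1 and Hba-a2 differ at 1 of 429 bases, shown in capitals in the last stretch of each (bases 371 to 429 of the coding sequence, 5′ to 3′, GRCm38).
Hba-a1: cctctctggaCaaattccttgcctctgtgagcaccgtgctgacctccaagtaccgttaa
Hba-a2: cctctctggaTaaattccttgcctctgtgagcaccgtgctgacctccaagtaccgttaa
Hbb-bs and Hbb-bt likewise differ at 1 of 444 coding bases, within bases 387 to 444.
Hbb-bs: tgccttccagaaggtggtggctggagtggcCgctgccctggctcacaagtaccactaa
Hbb-bt: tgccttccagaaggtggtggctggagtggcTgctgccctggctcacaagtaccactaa
Of the 100-base windows along the annotated transcripts, 56.5% in Hba-a1, 74.5% in Hba-a2, 62.6% in Hbb-bs and 54.8% in Hbb-bt occurred unchanged in the partner gene. How reads matching several genes were counted is not given in the sources used here, so the split between partners is uncertain. Their sum is not touched by a read moved from one to the other. It would be lowered by a read left out because it matches both partners, and whether such reads were left out is not given. The adult globin levels below, and the ratios that use them, carry this limit.

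The embryonic genes do not have this limit: 0 of their 100-base windows occurred in another of these transcripts. The first 90 coding bases of the beta-type genes are shown with capitals where the embryonic gene differs from Hbb-bs, at 29 positions in Hbb-bh1 and 26 in Hbb-y.
Hbb-bs: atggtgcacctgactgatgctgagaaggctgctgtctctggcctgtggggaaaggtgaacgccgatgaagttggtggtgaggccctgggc
Hbb-bh1: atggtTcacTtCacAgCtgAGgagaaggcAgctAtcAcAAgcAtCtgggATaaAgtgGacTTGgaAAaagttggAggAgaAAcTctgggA
Hbb-y: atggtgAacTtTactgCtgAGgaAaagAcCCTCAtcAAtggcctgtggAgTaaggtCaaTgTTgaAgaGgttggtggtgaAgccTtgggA
Over the whole coding sequence Hbb-bs was 74.3% identical to Hbb-y and 74.1% to Hbb-bh1, and Hba-a1 was 62.0% identical to Hba-x.

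Adult globin genes and Alas2 moved together across the libraries, as described below, and the 150 bases before the RefSeq start of 4 of them and of 1 embryonic gene are shown for that reason (GRCm38.p6, gene strand, 5′ to 3′). Capitals mark 4 kinds of letters known from globin promoters. CACCC was searched on both strands, as was the CCAAT box and, as GATA-type letters, AGATAA or TGATAA, while TATAA or ATAAA was searched on the gene strand. Neighbouring matches can overlap.
Hba-a2, chr11:32296342-32296491, forward strand: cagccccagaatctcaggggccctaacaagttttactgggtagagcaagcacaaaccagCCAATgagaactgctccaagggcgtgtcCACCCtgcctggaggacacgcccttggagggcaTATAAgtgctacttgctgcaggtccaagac
Hbb-bs, chr7:103827929-103828078, reverse strand: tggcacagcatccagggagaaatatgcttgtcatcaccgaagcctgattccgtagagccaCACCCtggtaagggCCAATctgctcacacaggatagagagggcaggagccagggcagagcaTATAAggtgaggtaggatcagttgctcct
Hbb-bt, chr7:103813924-103814073, reverse strand: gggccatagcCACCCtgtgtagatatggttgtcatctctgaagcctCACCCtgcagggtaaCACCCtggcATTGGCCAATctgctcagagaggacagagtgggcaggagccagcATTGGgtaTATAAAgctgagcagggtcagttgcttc
Alas2, chrX:150547267-150547416, forward strand: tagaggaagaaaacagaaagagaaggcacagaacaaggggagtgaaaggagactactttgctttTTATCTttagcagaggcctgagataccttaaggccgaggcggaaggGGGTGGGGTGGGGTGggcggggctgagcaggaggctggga
Hbb-y, chr7:103853208-103853357, reverse strand: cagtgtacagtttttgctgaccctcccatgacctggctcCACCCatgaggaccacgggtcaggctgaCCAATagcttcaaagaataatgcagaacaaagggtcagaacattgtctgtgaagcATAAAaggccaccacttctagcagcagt
RefSeq promoters were found for 7 of the 8 genes, all but Hbb-bh1. CACCC was found in all 7, against 37.4% of 32851 promoters of the same length. CCAAT was found in 5, not in Hba-x or Alas2, against 24.5% of promoters. AGATAA or TGATAA was found in Hba-x and Alas2, against 9.65%, and TATAA or ATAAA in all but Alas2, against 19.2%. CACCC occurred once in Hbb-bs and 3 times in Hbb-bt. The window of Hba-a1 repeats that of Hba-a2 over 147 bases, shifted by 3. These are matches of letters and show no binding. The GENCODE model of some of these genes begins farther upstream than the RefSeq start, in Hbb-bs before the whole window shown.

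The libraries held 19524945 to 28544511 counts, and values below are counts scaled to a common library size (CPM, with TMM factors) unless said otherwise. A gene was called changed when the adjusted p of edgeR's quasi-likelihood test (Benjamini-Hochberg over 18485 genes tested) was under 0.05. Kdm1a itself was present in all knockout libraries, at 94.0, 95.3, 90.9 and 94.2 CPM against 109.8, 112, 120 and 109.7 in controls (log2 fold change -0.27, SE 0.05, edgeR adjusted p = 0.0194; exact two-sided permutation p = 0.0286, the smallest that 70 assignments allow). The call on Kdm1a ended when any 1 of controls 1 and 3 or knockouts 1, 2 and 4 was left out (log2 fold change -0.29 to -0.24 over all leave-one-out fits). Of all genes 2751 were called, or 14.9%; this count was 536, 7084, 374 and 695 without controls 1 to 4 and 567, 596, 3192 and 153 without knockouts 1 to 4. Kidney markers were present but uneven: the 10 tubule and podocyte markers summed to 804 to 2517 CPM in controls and 112 to 1061 in knockouts, and Umod, made in the thick ascending limb, was at 0.05 CPM in knockout 2. Six2, a nephron progenitor gene, was found at 96.9 to 219 CPM in every library. Libraries also stood apart in 2 ways that the labels do not mention. Xist, expressed from an inactive X chromosome, was at 965 to 1086 CPM in control 2, knockout 1 and knockout 4 and at 2.25 to 6.14 CPM in the other 5, in which Y-linked Ddx3y was at 75.5 to 112 CPM. Adrenal genes summed to 2758 CPM in knockout 1, 384 in knockout 4 and 156 in control 4, and to 20.1 to 26.5 in the rest.

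Adult globin transcripts were found in every kidney, and they varied more among kidneys of one genotype than between the genotype means. Hba-a1, the major adult alpha-globin, was at 273, 340.1, 161 and 211 CPM in controls 1 to 4 and at 320.5, 198, 226 and 557 CPM in knockouts 1 to 4. Knockout 4 was the highest library and control 3 the lowest, and the other knockouts lay inside the control range. The means were 246 ± 77.7 (SD, n = 4) and 326 ± 163 (SD, n = 4), a log2 fold change of 0.40 (SE 0.34, 95% interval -0.36 to 1.17, edgeR adjusted p = 0.415).

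Hba-a2, the adult alpha-globin gene farther along the cluster, had the largest difference among the 5 genes that could be tested, and it did not pass the test. It was at 31.3, 49.98, 19.6 and 30.8 CPM in controls and at 63.0, 28.3, 39.3 and 84.9 CPM in knockouts. Knockouts 1 and 4 lay above all controls, knockout 3 lay between controls 1 and 2, and knockout 2 lay inside the control range. The log2 fold change was 0.71 (SE 0.36, 95% interval -0.11 to 1.54, edgeR adjusted p = 0.192), and it was 1.19 with adjusted p = 0.0252 in limma-voom with sample weights, the 1 setting of 18 in which any of these genes was called. Part of its reads cannot be told from those of Hba-a1, as its sequence shows.

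The beta-globins shared their 3 highest libraries with the alpha-globins. Hbb-bs was at 266, 349.8, 166 and 247 CPM in controls and at 326, 187, 236 and 638 CPM in knockouts, with knockout 4 above all others and the remaining knockouts within the control range. Its log2 fold change was 0.43 (SE 0.37, 95% interval -0.41 to 1.27, edgeR adjusted p = 0.426). Hbb-bt, the minor adult beta-globin, was at 50.6, 58.6, 34.6 and 38.8 CPM in controls and at 68.7, 32.2, 47.3 and 87.7 CPM in knockouts. Here knockouts 1 and 4 lay above the controls and knockout 2 lay below them. Its log2 fold change was 0.37 (SE 0.29, 95% interval -0.29 to 1.03, edgeR adjusted p = 0.384).

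Alas2 joins glycine and succinyl-CoA in the mitochondria of erythroid cells. It was at 12.2, 15.95, 10.3 and 11.7 CPM in controls and at 16.4, 8.79, 10.6 and 23.6 CPM in knockouts. The high and low libraries were those of Hbb-bt, and the groups overlapped. The log2 fold change was 0.25 (SE 0.30, 95% interval -0.42 to 0.91, edgeR adjusted p = 0.574). Alas2 shares 311 of its 2403 exon bases (12.9%) with Apex2 on the opposite strand, so without a stated strand setting some of its counts may belong to Apex2, which was at 12.5 ± 0.636 CPM in controls and 14.8 ± 1.21 in knockouts (SD, n = 4 each).

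Of the 8 genes, 5 passed the filter on low counts (the adult globins and Alas2) and 0 were called changed, where 14.9% of all genes tested were called. At an unadjusted p under 0.05 the count was also 0, with DESeq2 it was 0, and with limma-voom it was 1. The 4 knockout libraries lay all above or all below the 4 controls for 0 of the 5, against 18.9% of all genes tested. All 5 log2 fold changes were above 0, with a median of 0.40 against 0.0044 over all genes. Without knockout 4 the values were 0.028 for Hba-a1, 0.42 for Hba-a2, -0.026 for Hbb-bs, 0.13 for Hbb-bt and -0.055 for Alas2. As a ratio of knockout to control, the 95% intervals reached from 0.747 (Alas2) to 2.90 (Hba-a2), so these libraries do not show that the levels were alike. In bulk tissue, more red cells and more globin RNA per red cell cannot be told apart.

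**Figure D1:**
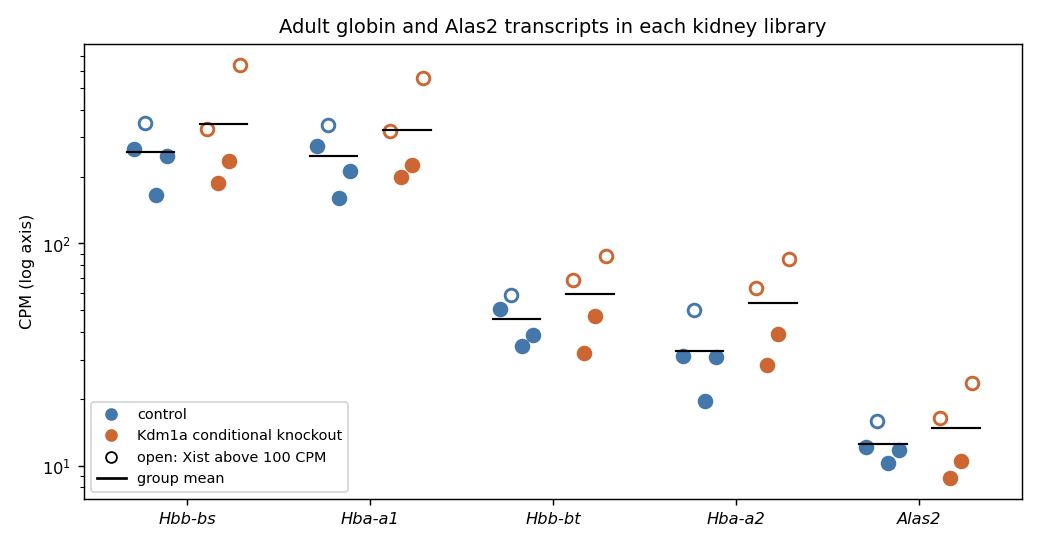
Level of each adult globin gene and of Alas2 in each library, in CPM on a log axis, with 4 control libraries in blue and 4 Kdm1a conditional knockout libraries in orange, replicates 1 to 4 from left to right, and a bar at the group mean. Open circles are the 3 libraries with Xist above 100 CPM. For all 5 genes the 3 open circles are the 3 highest libraries.

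The 3 libraries that were highest for each of the 5 genes were in all cases knockout 4, knockout 1 and control 2, the 3 with Xist at 965 to 1086 CPM. From lowest to highest library the range was 2.69-fold for Alas2 and 4.33-fold for Hba-a2. Summed over the adult globins, the level was 621, 798, 380.5 and 528 CPM in controls and 779, 446, 548 and 1368 CPM in knockouts, or 0.0367% to 0.140% of all counts in a library. The group means of the sum were 582 ± 175 and 785 ± 413 CPM (SD, n = 4 each), and the difference of 203 CPM became 9.03 CPM without knockout 4.

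Within the 5 libraries with low Xist, the adult globin sum averaged 509.6 CPM in the 3 controls (380.5 to 621) and 497 CPM in the 2 knockouts (446 and 548). Within the 3 libraries with high Xist it was 798 CPM in the 1 control and 779 and 1368 CPM in the 2 knockouts, too few for a test. In an edgeR fit on the low-Xist libraries alone, the log2 fold changes were -0.013 for Hba-a1, 0.32 for Hba-a2, -0.092 for Hbb-bs, -0.050 for Hbb-bt and -0.23 for Alas2. With a covariate made from Y-linked genes over all 8 libraries they were 0.15, 0.43, 0.14, 0.13 and -0.0067 in the same order, with adjusted p of 0.188 for Hba-a2 (edgeR). The part of the Xist pattern in the globin levels was not tested beyond these values. The sums of adrenal genes and of adult globins were 2758 and 779 CPM in knockout 1, 384 and 1368 in knockout 4, 156 and 528 in control 4, and 23.6 and 798 in control 2. The part of adrenal RNA in the globin levels was not tested beyond the fit that follows. Without control 4, knockout 1 and knockout 4 the log2 fold changes were -0.28 for Hba-a1, 0.010 for Hba-a2, -0.30 for Hbb-bs, -0.27 for Hbb-bt and -0.40 for Alas2, and none was called.

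**Figure D2:**
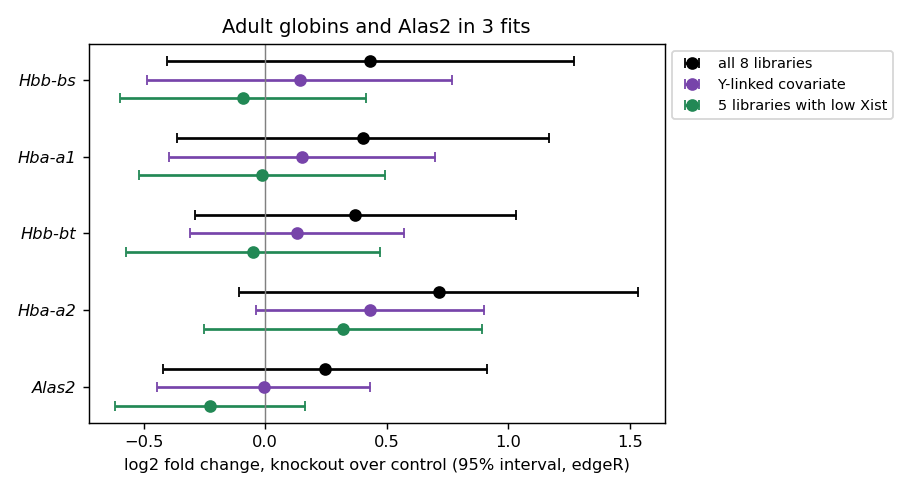
Fitted log2 fold change, knockout over control, of each adult globin gene and Alas2 with its 95% interval from edgeR, using all 8 libraries (black), all 8 with a Y-linked covariate (purple) and the 5 libraries with low Xist (green). All intervals include 0, and the values for Hbb-bs go from 0.43 to 0.14 to -0.092 over the 3 fits.

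Per kilobase of gene length, the order of levels in controls was Hbb-bs at 335 CPM, Hba-a1 at 303, Hbb-bt at 65.0, Hba-a2 at 49.4 and Alas2 at 5.21. In knockouts it was the same order, at 451, 401, 83.9, 80.8 and 6.17 CPM per kilobase. Hbb-bs and Hba-a1 rose and fell together, so the spread between libraries does not measure the gap between them. The same holds for Hbb-bt and Hba-a2. Whether these genes differ within libraries was not tested, and their order rests on how shared reads were counted. The embryonic genes followed far below, with Hba-x at 0.104 and 0.0338 CPM per kilobase in controls and knockouts, Hbb-y at 0.0162 and 0.143, and Hbb-bh1 at 0 in both.

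The embryonic genes were close to absent in both genotypes. Hba-x, the zeta-type chain of primitive red cells, had 4, 0, 0 and 5 counts in controls and 3, 0, 0 and 0 in knockouts. Hbb-y, the epsilon-type chain of the same cells, had 1, 0, 0 and 0 counts in controls and 6, 0, 0 and 3 in knockouts. Hbb-bh1, a further chain of early primitive red cells, had 0 counts in all 8 libraries. Counts of Hbb-y in knockouts thus came from 2 libraries only, and 2 of 4 libraries in each genotype had no count of any embryonic globin.

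Against a pool of 53417 globin counts in controls, the 10 embryonic counts were 0.0187% (exact Clopper-Pearson 95% interval 0.00898% to 0.0344%). In knockouts 12 of 81194 were embryonic, 0.0148% (0.00764% to 0.0258%), and the intervals overlap over most of their length. For Hbb-y alone the shares were 0.00187% in controls (1 count; 4.74e-05% to 0.0104%) and 0.0111% in knockouts (9 counts; 0.00507% to 0.0210%). For Hba-x alone the order was the other way, 0.0168% in controls (9 counts) and 0.00369% in knockouts (3 counts). With 0 counts, Hbb-bh1 could be present at up to 0.00562% of globin counts in controls and 0.00369% in knockouts, taking 3 counts as the limit that a count of 0 allows. These intervals and limits cover counting error only and treat the reads of a genotype as 1 pool, which leaves out the spread between kidneys.

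Per library the embryonic share was 0.0330%, 0%, 0% and 0.0431% in controls and 0.0488%, 0%, 0% and 0.00789% in knockouts. The means were 0.0190% ± 0.0223 and 0.0142% ± 0.0234 (SD, n = 4 each), a difference smaller than the SD of either group. Among alpha-type counts alone the mean share was 0.0369% in controls and 0.00826% in knockouts, and among beta-type counts alone it was 0.00324% and 0.0197%, so the direction depends on which cluster is taken. The 3 embryonic genes did not pass the filter and have no place in the main test. Fitted without a filter, Hbb-y had a log2 fold change of 2.57 (edgeR adjusted p = 0.321) and Hba-x one of -1.54 (adjusted p = 0.512), values that depend on the prior count of the fit. A change of the embryonic genes was not detectable at this depth.

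**Figure D3:**
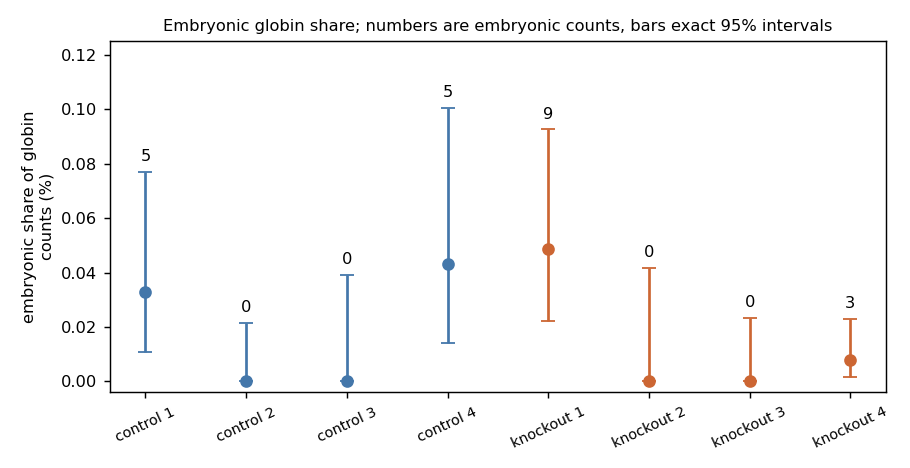
Share of embryonic counts (Hba-x, Hbb-y and Hbb-bh1) among all globin counts in each library, in percent, with exact Clopper-Pearson 95% intervals as bars and the number of embryonic counts above each. Controls 1 and 4 (5 counts each) and knockouts 1 and 4 (9 and 3 counts) hold all embryonic counts, and the intervals of the genotypes overlap.

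Ratios within a library do not depend on its scaling, and they were steadier than the levels. Alpha-type genes made up 49.1%, 48.9%, 47.4% and 45.9% of globin counts in controls and 49.3%, 50.9%, 48.4% and 47.0% in knockouts, with means of 47.8% ± 1.49 and 48.9% ± 1.63 (SD, n = 4 each). The 2 chain types were thus counted at near-equal numbers in every library, in a range of 45.9% to 50.9%. Alas2 counts per 1000 adult globin counts were 19.6, 19.98, 26.9 and 22.2 in controls and 21.05, 19.7, 19.2 and 17.3 in knockouts, and the groups overlapped. The 2 extremes were control 3, the library with the least adult globin, and knockout 4, the one with the most. Adult globin is the divisor of this ratio, so the place of its extremes is not independent of the globin level.

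Within the alpha pair, the share counted to Hba-a2 was 10.3%, 12.8%, 10.9% and 12.7% in controls and 16.4%, 12.5%, 14.8% and 13.2% in knockouts. The means were 11.7% ± 1.30 and 14.2% ± 1.75 (SD, n = 4 each), and 3 of 4 knockouts lay above all controls, with knockout 2 below controls 2 and 4. Within the beta pair, the share counted to Hbb-bt was 16.0%, 14.4%, 17.3% and 13.6% in controls and 17.4%, 14.7%, 16.7% and 12.1% in knockouts, with means of 15.3% ± 1.67 and 15.2% ± 2.38. Both shares rest on how reads common to the partners were placed.

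Genes that define red cells were low beside the globins. Slc4a1, the anion exchanger of the red cell membrane that acid-secreting cells of the kidney also express, was at 4.08 to 11.3 CPM in controls and 1.004 to 14.7 in knockouts. Klf1, a transcription factor that turns on adult beta-globin, was at 0.788 to 2.10 and 0.612 to 1.44 CPM. Gata1 was at 0 in controls 1 and 4 and in knockout 2, and at most 0.510 CPM elsewhere, and Rhag was at 0 in controls 1, 2 and 4. These genes did not share the globin order of libraries: Rhag, Sptb and Slc4a1 were highest in knockout 1, where Rhag was at 1.18 CPM and Sptb, the beta-spectrin gene of the membrane skeleton, at 27.1, while the globins were highest in knockout 4, where Rhag was at 0.504 and Sptb at 9.82.

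**Figure D4:**
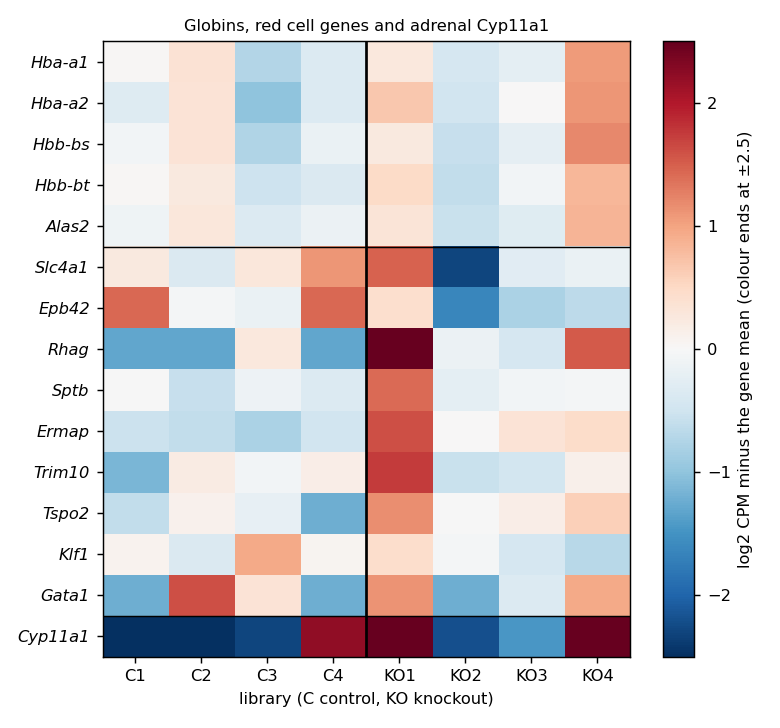
Log2 CPM of each gene minus its mean over the 8 libraries, as colour (red above the mean, blue below, ends at 2.5 either way), for the adult globins and Alas2 (top block), 9 red cell genes (middle block) and adrenal Cyp11a1 (bottom row), with controls C1 to C4 left and knockouts KO1 to KO4 right of the line. The globin rows are reddest in KO4, and most red cell membrane rows are reddest in KO1, the library in which Cyp11a1 was at 343 CPM.

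Among 12 genes of heme synthesis, 0 were called higher and 3 lower, with a median log2 fold change of -0.16 against 0.0044 over all genes, 6.61% of which were called higher and 8.27% lower. Cpox, coproporphyrinogen oxidase, was at 24.8 to 59.9 CPM in controls and 17.7 to 24.7 in knockouts (log2 fold change -1.02, SE 0.24, edgeR adjusted p = 0.0270). Alad, which joins 2 molecules of aminolevulinate, fell by 0.34 on the log2 scale (edgeR adjusted p = 0.0287), and Abcb10, a mitochondrial transporter, fell by 0.35 (adjusted p = 0.0316). Alas1, the form of the first enzyme used outside red cells, had a log2 fold change of -0.0034 (adjusted p = 0.995). The kidney makes heme in its own cells, and the tubule and podocyte markers were lower in the knockouts as well: 7 of 10 were called lower, Lrp2 with a log2 fold change of -2.24, and 0 higher. Whether those markers' fall has a part in the heme genes was not tested. Leaving out any 1 library other than control 2 or knockout 3 ended the calls on Cpox and Alad, with adjusted p up to 0.0852 and 0.0965. The call on Abcb10 was kept only without control 2.

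Of the red cell membrane proteins and carriers, 18 of the 23 genes counted were tested, with a median log2 fold change of 0.06. Of these, 1 was called higher (6.61% over all genes) and 4 lower (8.27%). The lower ones were Car2, a carbonic anhydrase (-1.19), Epb41, a membrane skeleton protein (-0.45), the water channel Aqp1 (-1.99) and the glucose transporter Slc2a1 (-0.93), genes that kidney epithelium also expresses. Ermap, an erythroid membrane protein named here after its values were seen, was at 0.565 to 0.727 CPM in controls and at 3.38, 1.05, 1.35 and 1.47 in knockouts (log2 fold change 1.45, SE 0.38, edgeR adjusted p = 0.0380). All 5 of these calls ended when any 1 library other than control 2 or knockout 3 was left out, with adjusted p up to 0.109 for Ermap. Icam4 had 0 counts in all libraries.

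Erythroid transcription factors were called in neither direction: 13 of 16 were tested, with 0 called by edgeR against 14.9% over all genes. The median log2 fold change was -0.03, and 2 genes had an unadjusted p under 0.05 in that test. The 2 were Ldb1, which links GATA1 complexes to distant enhancers (0.17, edgeR adjusted p = 0.0666), and Foxo3 (0.17, adjusted p = 0.122). Gata2, Tal1, Lyl1 and Lmo2 of this list are also known from endothelium.

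Regulators of the embryonic to adult globin switch include the protein that LSD1 works with in red cell precursors. Of 28 genes listed, 27 were tested, with a median log2 fold change of 0.06. Of these, 3 were called higher (6.61% over all genes) and 2 lower (8.27%). Bcl11a, a repressor of embryonic globins in erythroid cells that neurons and lymphocytes also express, was at 3.36, 6.03, 3.15 and 3.86 CPM in controls and at 12.5, 13.8, 9.51 and 11.1 CPM in knockouts. All knockouts lay above all controls, with a log2 fold change of 1.52 (SE 0.23, edgeR adjusted p = 0.0110), and the call held in all 8 leave-one-out fits (adjusted p 0.000756 to 0.0476). It did not hold without the 3 libraries with the most adrenal RNA (log2 fold change 1.48, adjusted p = 0.294), a fit of 3 controls and 2 knockouts in which 1 gene of all was called. Nr2c1, one of the nuclear receptors that repress embryonic globins, rose by 0.33 on the log2 scale (edgeR adjusted p = 0.0362), while its partner Nr2c2 had a value of 0.09 (adjusted p = 0.484). Nfix, a further repressor of the fetal program, had a log2 fold change of 0.75 (adjusted p = 0.0335). The lower ones were Kdm1a itself and Mbd3, a subunit of the NuRD complex (-0.32, adjusted p = 0.0331). The calls on Nfix and Mbd3 held only without control 2 and without knockout 3, and that on Nr2c1 only without control 2, with adjusted p up to 0.105 in the other fits. Which cells of the kidney held the Bcl11a transcripts cannot be read from bulk RNA, and its level stands beside embryonic globins at 10 and 12 counts in all.

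The signals that set red cell production and iron supply gave 1 call in each direction among 10 of 13 genes tested. Over all genes 6.61% were called higher and 8.27% lower. The median log2 fold change of the 10 was -0.16. Trf, transferrin, was at 5.37 to 7.47 CPM in controls and at 19.3, 7.98, 8.17 and 16.5 CPM in knockouts (log2 fold change 1.04, edgeR adjusted p = 0.0486), with the 2 highest values in the knockouts that also had the most adrenal RNA, and it was 0.44 (adjusted p = 0.106) in the low-Xist libraries. Slc11a2, an iron importer, had a log2 fold change of -0.62 (adjusted p = 0.0368). Among leave-one-out fits the call on Trf held only without control 2 and without knockout 3 and that on Slc11a2 only without control 2, with adjusted p up to 0.129 and 0.109. Epo, the hormone the kidney makes to drive red cell production, was at no more than 0.127 CPM in any library.

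Clearance of hemoglobin and storage of its iron was the group with the most calls among those of the red cell lists: 4 of 15 higher and 5 lower, with a median log2 fold change of -0.33, where 6.61% of all genes were called higher and 8.27% lower. Cubn and Lrp2, receptors with which the proximal tubule takes up filtered hemoglobin among other proteins, had log2 fold changes of -3.10 (edgeR adjusted p = 0.0183) and -2.24. Cd163, the macrophage receptor for hemoglobin bound to haptoglobin, was at 4.87, 7.37, 7.18 and 4.23 CPM in controls and at 17.9, 12.7, 10.1 and 13.7 CPM in knockouts (2.30-fold, 95% interval 1.59 to 3.32, edgeR adjusted p = 0.0192). Lrp1, a receptor for heme bound to hemopexin and for many other ligands, had a value of 0.49 (adjusted p = 0.0168). Of the 10 macrophage markers, 8 had log2 fold changes above 0, as Cd163 did, and 2 below. By the test 4 were called higher (6.61% over all genes) and 0 lower. The 10 summed to 136 to 160 CPM in controls and 172 to 214 in knockouts. Csf1r was at 26.1, 20.7, 35.6 and 44.0 CPM in controls and at 18.0, 27.0, 30.3 and 20.9 in knockouts. Cx3cr1 was at 7.05, 8.72, 5.53 and 7.77 CPM in controls and at 1.90, 8.84, 9.55 and 3.67 in knockouts. Whether the macrophage level has a part in the Cd163 difference was not tested. The call on Cd163 ended without control 1, knockout 1 or knockout 4, that on Lrp1 without control 1, control 3 or knockout 4, and that on Cubn without any 1 of these 4, with adjusted p of at most 0.0647, 0.0617 and 0.0672. The call on Lrp2 also ended without control 4 (adjusted p up to 0.0726).

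Genes of other blood cells can be read without the globins, but whether their sums measure the blood in a kidney was not tested. The counts of calls that follow stand beside 6.61% of all genes called higher and 8.27% called lower. Neutrophil genes summed to 9.69 to 21.5 CPM in controls and 8.63 to 39.8 in knockouts, with 6 of 10 tested and 0 called. Lymphocyte genes summed to 10.98 to 11.9 and 11.02 to 12.5 CPM, with 4 of 10 tested and 0 called. Platelet genes summed to 18.9 to 24.7 CPM in controls and 33.2 to 38.6 in knockouts, without overlap. Pf4 was the largest part of that sum in every library, and the groups overlapped for every other gene of the list. Of these genes 4 of 10 were tested and 1 was called, Pf4, a platelet chemokine that tissue macrophages also make, which was at 8.77 to 12.1 CPM in controls and 21.1 to 22.7 in knockouts (log2 fold change 1.16, SE 0.12, edgeR adjusted p = 0.00496). Itga2b, the platelet integrin, was at 6.14 to 7.47 CPM in controls and 6.58 to 9.96 in knockouts (adjusted p = 0.320). Endothelial markers, the lining of the vessels that hold the blood, had log2 fold changes below 0 for all 10 (median -0.40), summed to 648 to 974 CPM in controls and 453 to 759.6 in knockouts, and gave 0 called higher and 1 called lower, Emcn with a log2 fold change of -0.77 (adjusted p = 0.0382), a call that held only without control 2 or knockout 3 among leave-one-out fits (up to 0.112). The part of these cells in the globin levels was not tested.

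Among globins of other tissues, 2 of 6 were tested and 0 called, where 14.9% of all genes tested were called. Cygb, a globin of fibroblast-like cells, was at 40.0 to 52.3 CPM in controls and 41.4 to 57.4 in knockouts (log2 fold change 0.11, edgeR adjusted p = 0.519), and Ngb, a neuronal globin, had a value of 0.13 (adjusted p = 0.823). Hbq1b, a theta-type gene of the alpha cluster named after its values were seen, had 2 to 11 counts per library, and the beta-type Hbb-bh2 had 0 counts throughout.

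Genes whose levels followed the adult globins most closely were looked for among 14183 genes of at least 1 CPM, by Pearson's r of log2 CPM over the 8 libraries. Among the 5 highest were Mir17hg (0.978), Fabp7 (0.974), Slc36a1 (0.957) and Akap6 (0.933), and without the 2 libraries farthest from the median r was 0.966, 0.981, 0.890 and 0.777. Mir17hg, the host gene of a microRNA cluster, ranged from 15.6 to 26.6 CPM. None of these 4 was called between genotypes (edgeR adjusted p 0.249 to 0.576). For the embryonic counts the 5 highest were Cpsf4 (0.959), Syne3 (0.947), Tubgcp6 (0.914), Fbrsl1 (0.890) and Olfm4 (0.887), a ranking that rests on 22 counts. The libraries also differ in Xist and in adrenal genes, and these values of r describe these 8 libraries only.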

How the data were processed

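The 8 members and all lists were chosen with earlier results of these data known. Per the submitters' processing notes, Trimmomatic 0.36, STAR 2.5.2b, featureCounts of Subread 1.5.2, DESeq2 and the build GRCm38 were used; settings for strand and for reads matching several genes are not given in the sources used here. Per the file headers, the authors deposited unnormalized counts of reads for each gene, with gene lengths. Symbols came from GENCODE M21 (48970 of 49315 IDs matched), promoters from RefSeq (GRCm38.p6). Counts were fitted with edgeR 4.0.16 (quasi-likelihood, TMM, filterByExpr, genotype only, R 4.3.3) on 18485 genes; alternatives were DESeq2 1.42.0, limma 3.58.1 and those named in the closing section. The fit was tested on simulated data. Log2 CPM used a prior count of 2. No library pair matched within sampling noise (lowest chi-square per degree of freedom 11.8 over 28 pairs). Of 194 list genes 192 matched. Genes named were the 8 members, Kdm1a, up to 3 called genes per list with the smallest adjusted p (else 2 by unadjusted p), fixed red cell and kidney markers, and the 5 likest genes per pattern; others were named after their values were seen. Results on some genes of these lists and rankings are not reported here.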

Additional observations from a re-analysis of the deposited data

Results flagged for a closer look

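In groups of 4 libraries, 3 of 28 groups checked had a highest library far from the other 3 (Dixon's 95% criterion), and chance flags about 1 in 20 groups. That rate does not cover Hba-x and Hbb-y, since any count is flagged when the other 3 libraries are at 0. Hba-x in knockout 1 was at 0.127 CPM, from 3 counts, with the other knockouts at 0. Hbb-y in control 1 was at 0.0410 CPM, from 1 count, with the other controls at 0. The embryonic share of globin counts in knockout 1 was 0.0488%, from 9 counts, against at most 0.00789% in the other knockouts. All 3 rest on fewer than 10 counts.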

How the results depend on the processing

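Over 18 alternatives the log2 fold changes ranged from -0.28 to 0.78 for Hba-a1, 0.010 to 1.19 for Hba-a2, -0.30 to 0.81 for Hbb-bs, -0.27 to 0.64 for Hbb-bt and -0.40 to 0.53 for Alas2. Signs reversed in the 5 libraries with low Xist, chosen after seeing the data (Hba-a1 -0.013, Hbb-bs -0.092, Hbb-bt -0.050, Alas2 -0.23), without the 3 adrenal-high libraries, also chosen after seeing the data (-0.28, -0.30, -0.27 and -0.40 in that order), without knockout 4 (Hbb-bs -0.026 and Alas2 -0.055, in leave-one-out ranges up to 0.64 and 0.43) and with the Y-linked covariate (Alas2 -0.0067). limma-voom called 1 member (Hba-a2); the cause was not tested. Genes called were 2751 in the main edgeR fit, 4506 with DESeq2, 8302 with limma-voom, 1 without the adrenal-high libraries and 153 to 7084 over leave-one-out fits, where members called stayed at 0. Called list genes were 39, 79 with limma-voom, 0 without the adrenal-high libraries and 3 to 68 over leave-one-out fits. Apart from Kdm1a, 38 list genes were called, of which 3 (Bcl11a, Pf4 and Mrc1) held in all leave-one-out fits and 28 in the low-Xist libraries. Kdm1a missed the threshold with total counts (-0.20, edgeR adjusted p = 0.0533), in the low-Xist libraries (-0.28, 0.0562) and without the adrenal-high ones (-0.29, 0.325); leave-one-out values were -0.29 to -0.24. The difference in embryonic share, knockout minus control, was -0.00484 percentage points, -0.0287 among alpha-type genes, 0.0165 among beta-type genes and -0.0164 to 0.00318 over leave-one-out values, above 0 only without control 4. Replicate numbers did not pair the libraries (same-number deviations correlated at -0.108, 0.329, 0.228 and -0.0590; 3 of 8 libraries correlated best with their own number); a replicate block called 3229 genes and gave Hba-a1 0.34, Hba-a2 0.69, Hbb-bs 0.32, Hbb-bt 0.31, Alas2 0.17 and Kdm1a -0.27 (edgeR adjusted p = 0.0370). Depth limits the embryonic genes to a floor of 0.104 to 0.151 CPM per library.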
